A study of Homo sapiens with 6 samples.

Results

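The 10 genes described here encode a machinery that keeps transposable elements silent: TRIM28, SETDB1 and its partner ATF7IP, the HUSH genes MPHOSPH8, FAM208A and PPHLN1, the HUSH-linked gene MORC2, and the heterochromatin protein 1 (HP1) genes CBX1, CBX3 and CBX5. They were taken by name from the 53712 gene names of the deposited count table, in which FAM208A is the older symbol of TASOR, and all 10 were among the 17596 genes with enough counts to be tested. The study, titled as concerning LINE1 elements, Polycomb repressive complex 2 (PRC2), the nucleolus and the 8-cell-like state, used H9, an established line of human embryonic stem cells, kept in RSeT, which is sold for holding such cells in a naive-like condition. Both groups carried the same 2 further agents, given from 24 h after passage: DZNep at 10 nM, which blocks S-adenosylhomocysteine hydrolase and so lowers histone methylation, and TSA at 5 nM, which blocks histone deacetylases. With these, 3 libraries received 2.5 µM UNC1999, an inhibitor of the PRC2 methyltransferases EZH2 and EZH1, and 3 received UNC2400, an analog of it with added N-methyl groups and little activity, at the same dose; both were given for 48 h. No cells without DZNep and TSA, and none without either compound, were analysed here, so every value below is a difference between UNC1999 and UNC2400 on top of DZNep and TSA in 1 cell line.

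Most KRAB zinc finger proteins bind particular transposon families and bring in TRIM28 (also called KAP1), a scaffold that recruits the histone H3 lysine 9 methyltransferase SETDB1. ATF7IP holds SETDB1 in the nucleus and protects it from degradation. The HUSH complex, made of TASOR (FAM208A), MPP8 (MPHOSPH8) and periphilin (PPHLN1), silences young LINE1 elements and other intronless transcripts together with SETDB1 and the ATPase MORC2. HP1 proteins bind the methylated lysine: HP1β is the product of CBX1, HP1γ of CBX3 and HP1α of CBX5. In human embryonic stem cells this machinery is known for holding down endogenous retroviruses and LINE1 elements, and it works through a histone mark other than the lysine 27 methylation that PRC2 makes.

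The 250 bases upstream of the annotated start are printed for 3 of the 10 genes: ATF7IP, which fell most in the fit on group alone, FAM208A (TASOR), which rose, and CBX5, which held 3 matches to 1 motif. They are RefSeq sequence of build GRCh38.p14, 5′ to 3′ on the strand of the gene. Capitals mark, on either strand, the motifs GGGCGG (the GC box bound by SP-family factors), CCAAT (bound by NFY), CCGGAAG (bound by ETS factors) and GCGCANGCG (bound by NRF1). The ATF7IP window lies at chr12:14365432-14365681 on the plus strand, the TASOR window at chr3:56683266-56683515 on the minus strand, and the CBX5 window at chr12:54280123-54280372 on the minus strand.
ATF7IP: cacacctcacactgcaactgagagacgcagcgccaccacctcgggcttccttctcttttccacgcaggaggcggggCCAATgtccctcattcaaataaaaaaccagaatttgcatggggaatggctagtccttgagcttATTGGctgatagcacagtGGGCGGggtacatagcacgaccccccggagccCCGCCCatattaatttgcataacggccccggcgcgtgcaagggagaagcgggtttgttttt
TASOR: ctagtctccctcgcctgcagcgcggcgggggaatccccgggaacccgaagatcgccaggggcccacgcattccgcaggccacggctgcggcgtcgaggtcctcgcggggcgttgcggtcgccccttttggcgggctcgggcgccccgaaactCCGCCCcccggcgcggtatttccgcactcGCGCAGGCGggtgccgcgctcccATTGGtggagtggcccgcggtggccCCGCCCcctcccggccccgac
CBX5: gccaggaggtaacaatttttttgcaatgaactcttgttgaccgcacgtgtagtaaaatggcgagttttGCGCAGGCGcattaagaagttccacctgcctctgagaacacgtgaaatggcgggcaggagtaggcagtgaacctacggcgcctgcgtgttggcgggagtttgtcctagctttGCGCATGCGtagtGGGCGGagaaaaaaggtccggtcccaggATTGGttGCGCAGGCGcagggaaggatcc

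The windows differ among the silencers in base composition and in motifs. A window was found for 9 of the 10 genes, and the median over 27305 promoters of the same length was 10 CpG dinucleotides and 57.6% G or C. TASOR had 37 CpG and 76.4% G or C, CBX1 30 CpG and 76.0%, MORC2 31 CpG and 68.0%, and MPHOSPH8 26 CpG and 66.4%. SETDB1 was at the other end with 9 CpG and 46.0% G or C, and ATF7IP held 14 CpG and 55.6%. GGGCGG, present in 42.2% of all promoters, was found in the windows of ATF7IP, MPHOSPH8, TASOR, MORC2, CBX3 and CBX5. CCAAT, present in 33.0%, was found in those of ATF7IP, MPHOSPH8, TASOR, MORC2 and CBX5. GCGCANGCG, present in 7.02%, was found 3 times in CBX5 and 1 time in TASOR, and CCGGAAG, present in 8.78%, was found in PPHLN1 and CBX3. The SETDB1 and CBX1 windows held none of these 4 strings. A match describes the letters of the window and is not a measured binding site.

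Libraries held 29699441 to 42345448 counts. The pluripotent state was checked on 8 markers, which do not tell H9 from other lines. Their summed level was 7668 to 7767 CPM in UNC2400 and lower, at 6407 to 7132 CPM, in UNC1999. CPM are counts scaled to the library total and edgeR's TMM factors. The summed level of 8 trophoblast or amnion markers was 2.15 to 2.84 CPM. POU5F1, the core pluripotency factor, fell from 1393 ± 29.2 to 1024 ± 80.8 CPM (mean ± SD, n = 3 each). UNC1999 replicate 1 stood closer to UNC2400 than the other UNC1999 libraries did: of the genes whose groups did not overlap, it was the nearest UNC1999 library for 65.7%. For the silencers that passed the test this was so in 5 of 7. Without that library 6 silencers were lower and 1 higher, where 28.6% of all genes were lower and 27.4% higher.

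Of the 10 silencers, 6 were lower in UNC1999 (TRIM28, ATF7IP, PPHLN1, MORC2, CBX1 and CBX5), 1 was higher (FAM208A) and 3 did not pass (SETDB1, MPHOSPH8 and CBX3), by edgeR's quasi-likelihood test with Benjamini-Hochberg adjustment over all genes tested and a threshold of 0.05; with an offset for gene length and GC content, PPHLN1 turned to a log2 fold change of 0.08 and did not pass. The changes were small, with log2 fold changes between -0.59 (ATF7IP) and 0.23 (FAM208A) and a median of -0.21, against a median of 0.02 over all genes tested. The background is wide: 52.7% of all genes tested passed, 26.8% of those tested being higher and 25.9% lower. The groups did not overlap for 8 of the 10 silencers and for 60.6% of all genes. Since the cells were lysed in bulk, fewer cells expressing a gene and less RNA per cell cannot be told apart.

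**Figure D1:**
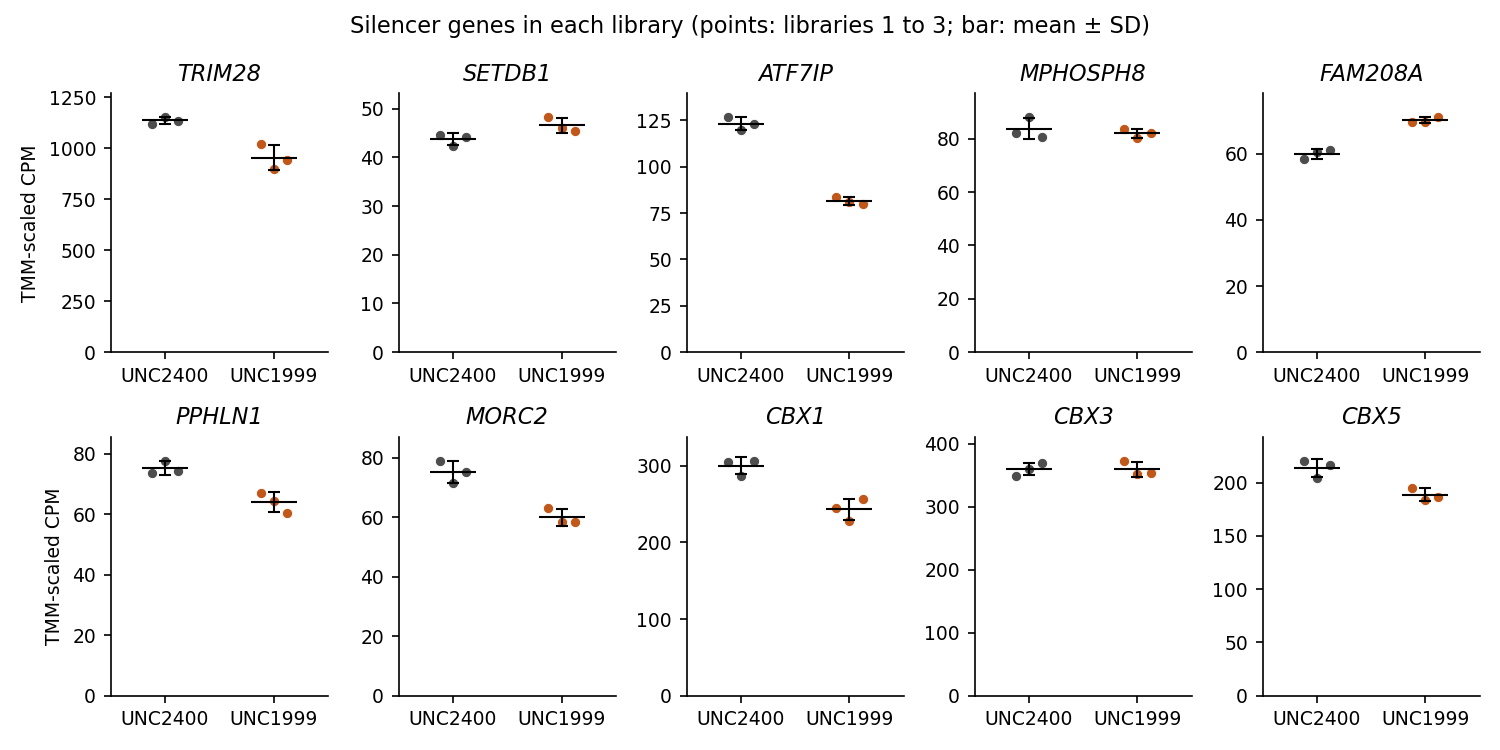
TMM-scaled CPM of the 10 silencer genes (vertical axes, each starting at 0) in the 3 UNC2400 and 3 UNC1999 libraries (points), with mean and SD as bars. ATF7IP shows the widest gap between the groups, FAM208A is the gene whose UNC1999 points lie above and that passed the test, and the points of MPHOSPH8 and CBX3 overlap.

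TRIM28 was by far the most abundant of the 10. Compared per length (mean TMM-scaled CPM per kb of joined exons in UNC2400), TRIM28 stood at 282 ± 4.05, CBX1 at 97.1 ± 3.59, CBX3 at 77.5 ± 2.08 and MPHOSPH8 at 17.1 ± 0.795 (SD, n = 3 each). Then came CBX5 at 14.2 ± 0.581, MORC2 at 12.04 ± 0.607 and ATF7IP at 9.34 ± 0.264. PPHLN1 (6.18 ± 0.183), SETDB1 (6.17 ± 0.175) and FAM208A (6.10 ± 0.150) closed the order and did not differ beyond their spread. The scaffold was thus recorded far above the methyltransferase it recruits. The order depends on the length used. Per kb of the longest coding transcript, CBX3 (169 ± 4.53) stood above CBX1 (124 ± 4.57), and PPHLN1 moved from the eighth to the fourth place (22.3 ± 0.660). TRIM28 stayed highest (384 ± 5.52) and FAM208A lowest (8.42 ± 0.207), now below SETDB1 (9.86 ± 0.280) by more than their spread.

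TRIM28, the scaffold between zinc finger proteins and SETDB1, was lower in UNC1999, and SETDB1 was not called. TRIM28 stood at 1120, 1153 and 1135 CPM in UNC2400 replicates 1 to 3 and at 1021, 897.6 and 941.2 CPM in UNC1999 replicates 1 to 3. All UNC1999 libraries lay below all UNC2400 libraries, UNC1999 replicate 1 closest to them. The log2 fold change was -0.25 ± 0.06 (SE; 95% interval -0.38 to -0.13; adjusted p = 0.00181), and with the offset for gene length and GC content it was -0.40 ± 0.07 (adjusted p = 0.000135). TRIM28 lies on chromosome 19 and is short and GC-rich, with a span of 6.63 kb and 60.9% G or C in its transcripts.

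SETDB1, the enzyme that methylates H3 lysine 9, had 44.6, 42.3 and 44.3 CPM in UNC2400 and 48.3, 46.0 and 45.4 CPM in UNC1999. The UNC1999 values were all above the UNC2400 values but by little, and the log2 fold change of 0.09 ± 0.05 did not pass (95% interval -0.02 to 0.21; adjusted p = 0.160). Without UNC1999 replicate 1 it was 0.0452. Its annotated span on chromosome 1 overlaps CERS2 on the opposite strand, which rose by 0.33 ± 0.05 (log2, SE; adjusted p = 7.28e-05). The strand setting of the counting is not given in the sources used here, so reads from such overlaps may have been shared.

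ATF7IP, the partner that stabilises SETDB1, had the largest change of the 10 in the fit on group alone, though not with the offset, where CBX1 (-0.42) and TRIM28 (-0.40) were further from 0. It stood at 127, 120 and 123 CPM in UNC2400 and at 83.9, 81.1 and 79.9 CPM in UNC1999. The groups were far apart, the lowest UNC2400 library lying well above the highest UNC1999 library, and the mean fell to 0.663 of its UNC2400 level. The log2 fold change was -0.59 ± 0.05 (SE; 95% interval -0.70 to -0.49; adjusted p = 6.88e-08). With the offset it was -0.36 ± 0.05 (adjusted p = 4.28e-06), moved by over 1.5 times; ATF7IP is a long gene of 137 kb with 41.5% G or C in its transcripts. ATF7IP2, its paralog, was also lower, by -0.55 ± 0.09 (adjusted p = 4.39e-05; -0.35 with the offset), from 13.9 ± 0.376 to 9.45 ± 0.513 CPM (SD, n = 3 each).

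The 3 HUSH subunits did not share a direction: FAM208A was higher, PPHLN1 lower, though not with the offset, and MPHOSPH8 was not called. FAM208A encodes TASOR, the subunit on which the complex is assembled. It had 58.3, 60.4 and 61.1 CPM in UNC2400 and 69.7, 69.5 and 71.1 CPM in UNC1999. Every UNC1999 library exceeded every UNC2400 library, with little spread within either group. The log2 fold change was 0.23 ± 0.05 (SE; 95% interval 0.12 to 0.33; adjusted p = 0.000926), and 0.34 ± 0.05 with the offset (adjusted p = 1.37e-05). CCDC66, which overlaps FAM208A on the opposite strand, had a log2 fold change of -0.02 ± 0.08 and was not called (adjusted p = 0.856).

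MPHOSPH8 encodes MPP8, whose chromodomain reads methylated lysine 9. It stood at 82.2, 88.2 and 80.9 CPM in UNC2400 and at 83.5, 80.2 and 82.2 CPM in UNC1999. The groups overlapped, with UNC2400 replicate 2 the highest of all, and the log2 fold change was -0.03 ± 0.05 (SE; 95% interval -0.14 to 0.08; adjusted p = 0.631), or -0.08 with the offset (adjusted p = 0.192).

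PPHLN1 encodes periphilin, the RNA-binding subunit. It stood at 73.5, 77.7 and 74.2 CPM in UNC2400 and at 67.0, 64.3 and 60.4 CPM in UNC1999. The groups did not overlap, and the log2 fold change was -0.23 ± 0.05 (SE; 95% interval -0.35 to -0.12; adjusted p = 0.00135), but with the offset it was 0.08 ± 0.05 (adjusted p = 0.188), so its direction depends on that choice. The annotation used for the offset gives PPHLN1 a span of 221 kb, which also covers PRICKLE1 and ZCRB1. PRICKLE1 rose by 1.01 ± 0.07 (log2, SE; adjusted p = 1.75e-08), and ZCRB1 had a log2 fold change of 0.08 ± 0.06 (adjusted p = 0.252).

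MORC2, an ATPase that compacts chromatin at HUSH targets, was lower with and without the offset. It stood at 79.1, 71.5 and 75.3 CPM in UNC2400 and at 63.1, 58.4 and 58.4 CPM in UNC1999. The groups did not overlap, UNC1999 replicate 1 being again the closest to UNC2400. The log2 fold change was -0.33 ± 0.05 (SE; 95% interval -0.44 to -0.21; adjusted p = 9.14e-05), and -0.35 ± 0.05 with the offset (adjusted p = 2.40e-05).

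The 3 HP1 genes had unequal values: CBX1 was lower, CBX5 was lower by less, and CBX3 was not called, although with the offset CBX3 passed and CBX5 did not. CBX1 (HP1β) stood at 305, 287 and 307 CPM in UNC2400 and at 244, 228 and 256.5 CPM in UNC1999, with no overlap. Its log2 fold change was -0.30 ± 0.06 (SE; 95% interval -0.42 to -0.18; adjusted p = 0.000226), and -0.42 ± 0.06 with the offset (adjusted p = 6.01e-06).

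CBX3 (HP1γ) stood at 350, 361 and 369 CPM in UNC2400 and at 374, 352 and 353 CPM in UNC1999. The groups overlapped and their means were both 360 CPM. The log2 fold change was -0.00 ± 0.05 (SE; 95% interval -0.11 to 0.11; adjusted p = 0.994), but -0.20 ± 0.06 with the offset (adjusted p = 0.00758). CBX3 overlaps HNRNPA2B1 on the opposite strand, an abundant gene that fell by 0.30 on the log2 scale (SE 0.06; adjusted p = 0.000606).

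CBX5 (HP1α) stood at 221, 204 and 216 CPM in UNC2400 and at 195, 184 and 187 CPM in UNC1999. The groups did not overlap, though the gap between UNC2400 replicate 2 and UNC1999 replicate 1 was narrow. The log2 fold change was -0.18 ± 0.05 (SE; 95% interval -0.29 to -0.07; adjusted p = 0.00781), and -0.09 ± 0.05 with the offset (adjusted p = 0.172). The annotation used for the offset names 15 pseudogenes of CBX1, CBX3 and CBX5. Those of them present in the count table were at 0.341 CPM or lower. How reads shared with such copies were counted is not given in the sources used here.

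**Figure D2:**
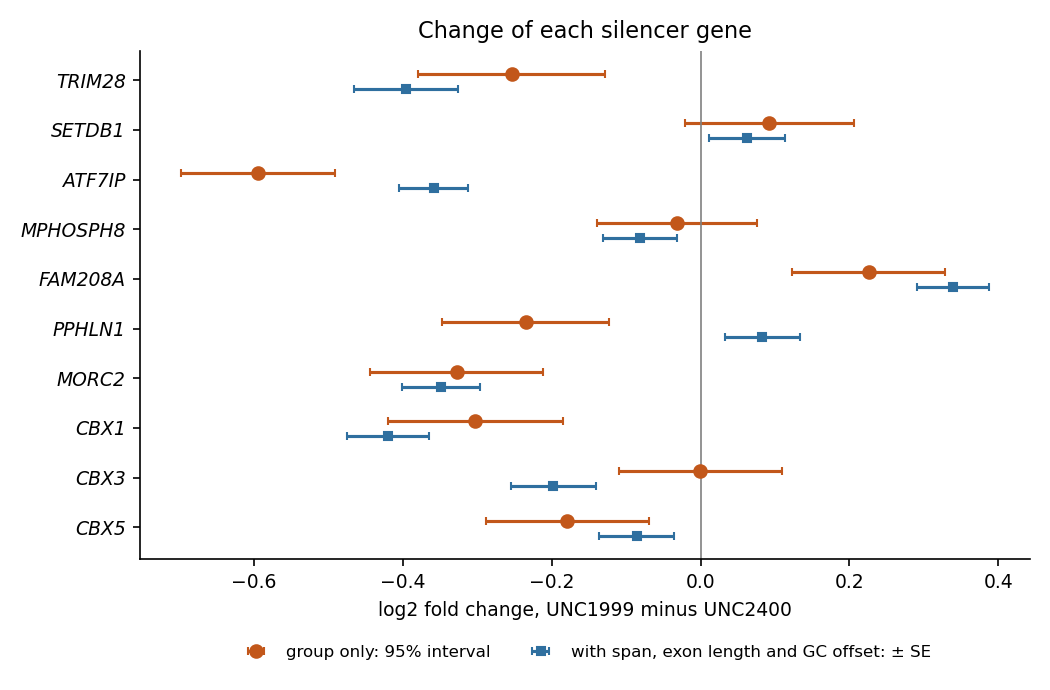
Log2 fold change of each silencer gene (UNC1999 minus UNC2400, horizontal axis) from 2 fits. Bars are the 95% interval for the fit on group only. For the fit with an offset for genomic span, exon length and GC content, bars are ± SE, which is narrower than a 95% interval. ATF7IP, TRIM28, MORC2 and CBX1 lie below 0 and FAM208A above 0 in both, while PPHLN1 crosses from -0.23 to 0.08.

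With the offset, 5 silencers were lower (TRIM28, ATF7IP, MORC2, CBX1 and CBX3) and 1 higher (FAM208A), where 25.1% of all genes were lower and 24.1% higher in that fit. TRIM28, ATF7IP, MORC2 and CBX1 were lower, and FAM208A higher, past the threshold in all 14 alternative analyses.

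Ratios of 2 silencers counted in the same library do not depend on how libraries are scaled, but they are not corrected for gene length or GC content. Of the 8 count ratios, ATF7IP relative to SETDB1, a protein and its stabilising partner, moved most; with the offset, the difference of the fitted log2 fold changes was -0.42 for this pair, -0.46 for TRIM28 to SETDB1 and -0.69 for MORC2 to FAM208A. The log2 count ratio was 1.507, 1.502 and 1.475 in UNC2400 and 0.80, 0.82 and 0.81 in UNC1999, a difference of -0.69 with hardly any spread within groups. TRIM28 to SETDB1 changed by -0.35, from 4.70 ± 0.06 to 4.35 ± 0.06 (log2, SD, n = 3 each).

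Relative to FAM208A, its complex partners were all lower in UNC1999. The log2 ratio of MPHOSPH8 to FAM208A differed by -0.26, that of PPHLN1 to FAM208A by -0.46 (-0.42 and -0.26 with the offset) and that of MORC2 to FAM208A by -0.55. In UNC2400 each of these 3 genes had more counts than FAM208A, and in UNC1999 PPHLN1 and MORC2 had fewer: the MORC2 to FAM208A log2 ratio went from 0.33 ± 0.10 to -0.23 ± 0.07 and the PPHLN1 to FAM208A log2 ratio from 0.33 ± 0.04 to -0.14 ± 0.09 (SD, n = 3 each). Counts are compared here without correction for length.

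Among the HP1 genes, CBX1 to CBX3 differed by -0.30, CBX5 to CBX3 by -0.18 and CBX5 to CBX1 by 0.12 on the log2 scale; with the offset these were -0.22, 0.11 and 0.33, so that the direction of CBX5 to CBX3 depends on that choice. The groups did not overlap in any of the 8 count ratios. These ratios share genes with each other, and the share over other gene pairs was not computed. Among single genes tested, the groups did not overlap for 60.6%. Each ratio had an exact two-sided permutation p of 0.1 (0.1 after adjustment over the 8). This is the smallest that 3 against 3 libraries can give, so none could pass 0.05.

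**Figure D3:**
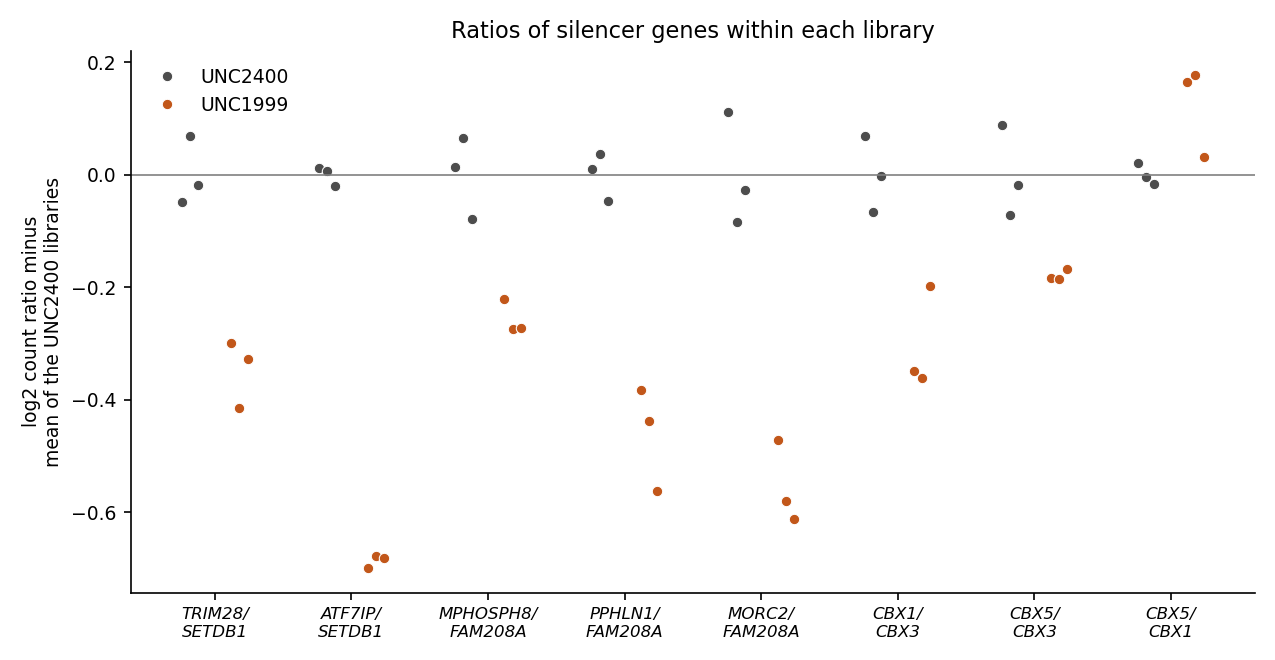
Log2 count ratio of pairs of silencer genes in each library, minus the mean of the UNC2400 libraries (vertical axis), for the 8 ratios (horizontal axis). The UNC1999 points lie below the UNC2400 points in 7 ratios, lowest for ATF7IP to SETDB1, and above them for CBX5 to CBX1.

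In the authors' deposited comparison table, 6 of the 10 silencers were lower and 1 higher at an adjusted p under 0.05, beside 22.7% lower and 21.3% higher of all genes in it. ATF7IP had a log2 fold change of -0.61 in the authors' deposited table (adjusted p = 4.23e-09), TRIM28 of -0.27 (adjusted p = 0.000777) and FAM208A of 0.21 (adjusted p = 0.00339). SETDB1 (0.08), MPHOSPH8 (-0.05) and CBX3 (-0.02) did not pass in the authors' deposited table. The groups did not overlap for 8 of the 10 in the authors' log2 values, which are marked as batch-corrected, and for 66.1% of all genes there.

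Over the 6 libraries, the genes whose centred log2 CPM followed the silencers most closely differed from them by a root mean square of about 0.01, among 10324 genes searched. For TRIM28 these were DYNLL1 (0.0120) and COG4 (0.0120), and for SETDB1 they were TEAD1 (0.0111) and DUS2L (0.0133). For FAM208A they were BCL2L12 (0.00882) and KRR1 (0.0124), and for CBX5 they were ZC3H18 (0.00685) and MED22 (0.00889). These are descriptions over 6 libraries that share 2 groups. With the offset, TEAD1 had a log2 fold change of 0.44 against 0.06 for SETDB1, BCL2L12 of 0.07 against 0.34 for FAM208A, and ZC3H18 of -0.02 against -0.09 for CBX5.

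Of 13 listed partners of TRIM28 and SETDB1, all tested, 7 were lower and 1 higher, or 8 and 2 with the offset. The median log2 fold change was -0.13. For this and the next 3 lists the counts are a description beside the shares over all genes, with no test. Those shares were 25.9% lower and 26.8% higher, or 25.1% and 24.1% with the offset. CHD3, a nucleosome remodeller that binds TRIM28, fell from 35.9 ± 2.01 to 22.7 ± 0.849 CPM (mean ± SD, n = 3 each; log2 fold change -0.66 ± 0.06, adjusted p = 3.37e-07). KIAA1551 (RESF1), a SETDB1 partner at endogenous retroviruses, was lower by -0.33 ± 0.05 and the remodeller SMARCAD1 by -0.24 ± 0.05 (log2, SE; -0.12 with the offset, adjusted p = 0.0411). ZNF274, a zinc finger protein that brings TRIM28 and SETDB1 to zinc finger gene clusters, was the higher one.

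Of the 6 other H3 lysine 9 methylation genes, EHMT1 and EHMT2, which form the G9a/GLP dimethyltransferase, were lower and the other 4 did not pass. EHMT1 had 143 ± 1.14 CPM in UNC2400 and 85.6 ± 11.5 CPM in UNC1999 (mean ± SD, n = 3 each); its log2 fold change was -0.74 ± 0.07 (adjusted p = 2.74e-07), or -0.24 with the offset. EHMT2 was lower by -0.40 ± 0.06 (adjusted p = 3.22e-05). SUV39H1, an enzyme for lysine 9 methylation in pericentric chromatin, had a log2 fold change of 0.16 ± 0.08 (adjusted p = 0.0824). For SUV39H1 it was 0.0547 with the offset and 0.0998 without UNC1999 replicate 1. WIZ, a zinc finger partner of EHMT1, had a log2 fold change of -0.07 ± 0.05 (adjusted p = 0.301), or 0.06 with the offset.

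Of 7 tested HUSH-linked genes, 4 were lower and 1 higher, or 1 and 2 with the offset. ZCCHC8, the scaffold of the nuclear exosome targeting complex, rose from 39.5 ± 1.46 to 48.2 ± 2.90 CPM (mean ± SD, n = 3 each; log2 fold change 0.29 ± 0.06), and SKIV2L2 (MTREX), the helicase of that complex, was lower by -0.27 ± 0.06. ZNF638, which brings HUSH to unintegrated retroviral DNA, was lower by -0.33 ± 0.06 and MORC4 by -0.26 ± 0.06, and neither passed with the offset.

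Of 13 HP1 partners and heterochromatin proteins, 6 were lower and 3 higher, or 6 and 2 with the offset. The higher ones on group alone were LRIF1 (0.37 ± 0.07), CHAF1B (0.20 ± 0.06) and ADNP (0.15 ± 0.05) (log2, SE). CHAF1B did not pass with the offset. HELLS, a remodeller needed for DNA methylation of repeats, fell from 108 ± 0.257 to 57.3 ± 5.81 CPM (mean ± SD, n = 3 each; log2 fold change -0.91 ± 0.06, adjusted p = 9.62e-09). UHRF1, which brings the maintenance DNA methyltransferase to replicated DNA, was lower by -0.44 ± 0.06. SMCHD1 (-0.31 ± 0.06) and ATRX (-0.43 ± 0.05) passed on group alone, but with the offset ATRX was at 0.05 and neither passed.

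**Figure D4:**
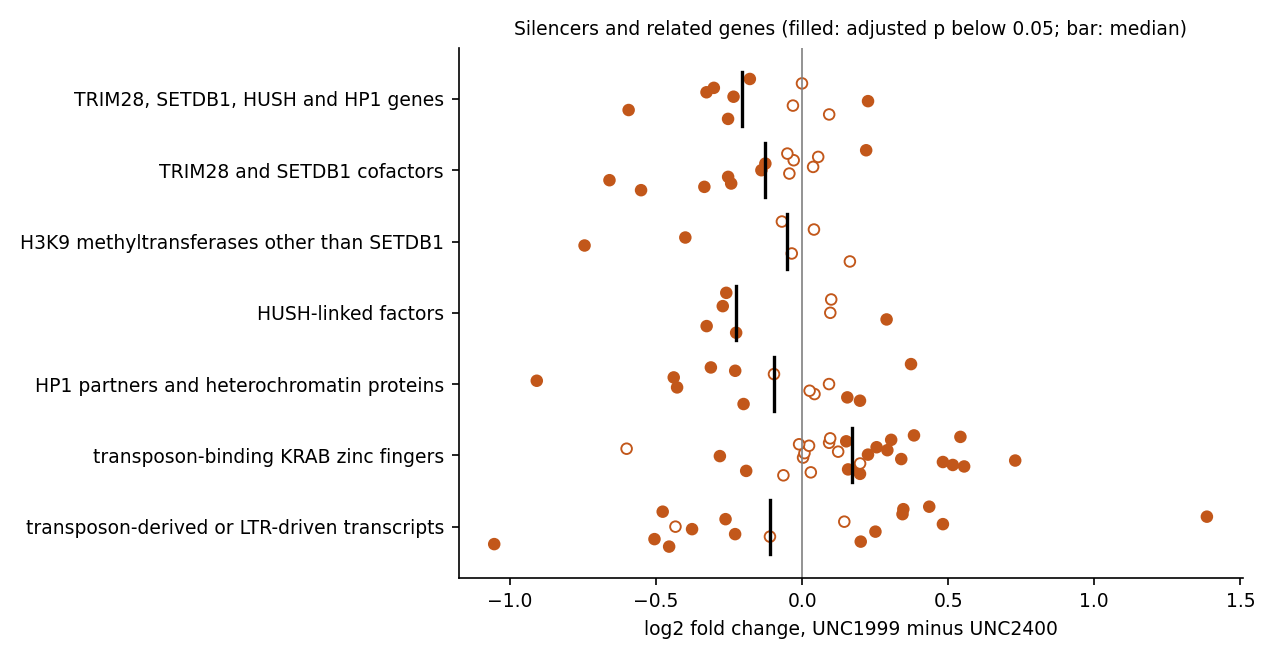
Log2 fold change (UNC1999 minus UNC2400, horizontal axis) of the 10 silencer genes and of the tested genes of 6 related lists (points; filled where the adjusted p is under 0.05), with the median of each list as a black bar. Medians lie between -0.23 and -0.05 for the silencers and the 4 chromatin lists, at -0.11 for transposon-derived transcripts and at 0.17 for the listed zinc finger genes.

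Zinc finger genes, which act upstream of TRIM28, were more often higher than lower; set beside the 26.8% higher and 25.9% lower of all genes, this is a description with no test. Of 28 tested zinc finger genes listed for their binding to transposons, 15 were higher and 2 lower, with a median log2 fold change of 0.17. With the offset, 12 were higher and 4 lower, with a median of 0.15. ZNF611, which binds SVA elements, rose from 10.9 ± 1.14 to 18.1 ± 2.08 CPM (mean ± SD, n = 3 each; log2 fold change 0.73 ± 0.10). ZNF43 was higher by 0.48 ± 0.05, ZNF320 by 0.34 ± 0.06 and ZNF675 by 0.30 ± 0.05 (0.52 with the offset). A wider set was all 451 tested genes named ZNF and a number, whether or not their proteins carry the KRAB domain that binds TRIM28. Of these, 264 (58.5%) were higher and 35 (7.76%) lower, with a median of 0.26. With the offset, 204 were higher and 38 lower, with a median of 0.18, where 24.1% of all genes were higher and 25.1% lower.

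At the ends of the range were ZNF624 (1.16 ± 0.15), ZNF641 (1.12 ± 0.11) and ZNF521 (1.08 ± 0.13), and ZNF648 (-0.57 ± 0.13), ZNF423 (-0.56 ± 0.09) and ZNF138 (-0.56 ± 0.06) (log2, SE). ZNF521 and ZNF423 are developmental factors without a KRAB domain, and ZNF423 was at -0.06 with the offset and did not pass. Many of these genes lie in clusters of similar copies, so that counts of single genes are uncertain where reads match several of them.

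**Figure D5:**
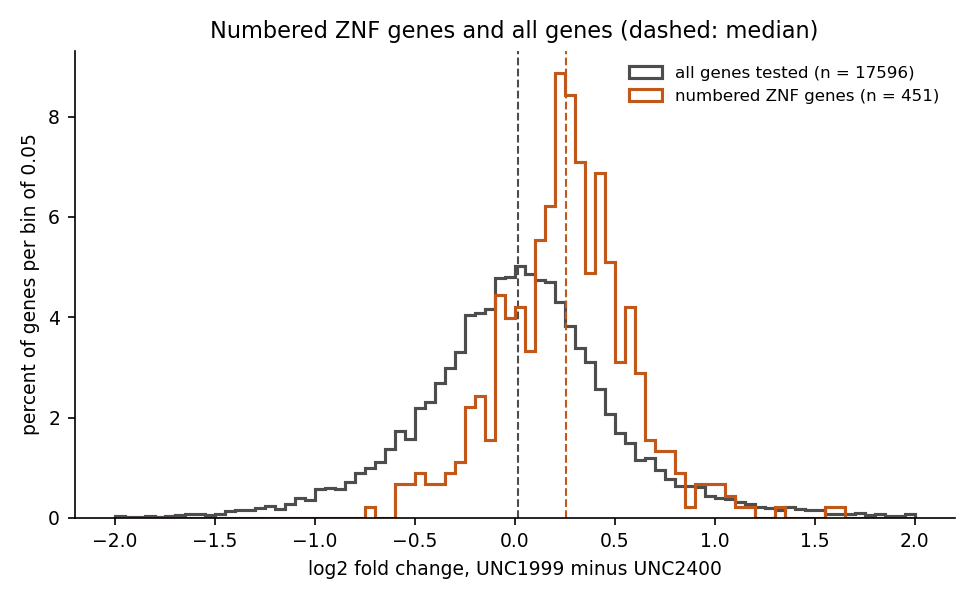
Percent of genes (vertical axis) per bin of 0.05 in log2 fold change (UNC1999 minus UNC2400, horizontal axis) for the 451 tested numbered ZNF genes and for all 17596 genes tested, with medians of 0.26 and 0.02 as dashed lines. The axis ends at 2 in both directions, and 84 genes, none of them a numbered ZNF gene, lie outside it.

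Listed transcripts that derive from transposons or are driven by them were found in both directions. The list mixes transcripts started from repeats with host genes of transposon origin, so it is not a readout of the machinery's targets. Of 17 tested, 7 were higher and 7 lower (median -0.11), or 5 and 8 with the offset (median -0.27). Of all genes, 26.8% were higher and 25.9% lower, or 24.1% and 25.1% with the offset. LINC-ROR, a long noncoding RNA started from an endogenous retrovirus, fell from 30.2 ± 0.816 to 14.5 ± 0.410 CPM (mean ± SD, n = 3 each; log2 fold change -1.05 ± 0.07), and HHLA1, a gene joined to a HERV-H repeat, was lower by -0.51 ± 0.05. ARC, which derives from a retrotransposon gag gene and is also an immediate early gene, rose from 3.68 ± 0.406 to 9.62 ± 2.53 CPM (log2 fold change 1.39 ± 0.17), and ERVH48-1, which encodes the envelope-derived protein suppressyn, by 0.48 ± 0.06, or 0.19 with the offset (adjusted p = 0.0125). The table counts genes, and LINE1 and other repeat families were not analysed here.

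Beside the lower silencers, 7 of 10 proliferation markers were lower and 0 higher, or 9 and 0 with the offset. Their summed level was 3061 to 3128 CPM in UNC2400 and 2350 to 2667 CPM in UNC1999. On group alone TOP2A (-0.68 ± 0.06) and MKI67 (-0.44 ± 0.06) fell most of the 10 (log2, SE). CDK1 (0.07 ± 0.06), PCNA (0.03 ± 0.05) and CCNB1 (0.002 ± 0.05) did not pass. Of 8 pluripotency markers, 4 were lower and 0 higher, or 8 and 0 with the offset, and SOX2 was at -0.01 ± 0.06, or -0.35 with the offset. Of 8 naive-state markers, 6 were tested, 4 of them higher and 2 lower, or 3 and 2 with the offset. KLF17 (16 counts in UNC2400, 41 in UNC1999) and KHDC1L (2 and 1) had too few counts to be tested. The summed level of the 8 was 209 to 220 CPM in UNC2400 and 209 to 225 CPM in UNC1999. DPPA5 made up most of this sum and was lower by -0.28 ± 0.05 (log2, SE). DNMT3L, a DNA methyltransferase cofactor, went from 4.17 ± 0.671 to 13.8 ± 1.12 CPM (mean ± SD, n = 3 each). Of 8 fibroblast markers, 5 were tested, 3 of them lower and 1 higher. The summed level of the 8 was 265 to 297 CPM in UNC2400 and 179 to 195 CPM in UNC1999. COL1A1, COL1A2 and THY1, the lower ones, carried it, while LUM and DCN had at most 4 counts per group. The higher one, PDGFRB, had 19 counts in UNC2400 and 53 in UNC1999, with groups that overlapped. COL3A1 had 13 and 14 counts, and TWIST2 did not pass. Of all genes, 25.9% were lower and 26.8% higher, or 25.1% and 24.1% with the offset. Beside these shares the marker counts are a description, with no test. The part of these markers in the silencers' values was not tested.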

How the data were processed

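The labels place 6 poly(A)-selected, strand-marked RNA-seq libraries (200 ng RNA each) in 2 groups of 3. They do not say whether replicates were separate cultures, so p-values measure only the spread between these libraries. The authors deposited whole-number counts per gene name; per the submitters' processing notes, hg19 was the build, and the tools were featureCounts, TopHat2 (2.0.13), Subread (1.5.0) and Trim Galore (0.4.0). Annotation version, strand setting and treatment of multi-mapped reads: not given in the sources used here. Besides, the authors deposited log2 values of 20368 genes, named by them as batch-corrected, and a comparison table holding p-values, test scores and log2 fold changes.

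Counts were tested with edgeR 4.0.16 (R 4.3.3; TMM, default low-count filter, quasi-likelihood F test on group, Benjamini-Hochberg over 17596 genes). CPM are TMM-scaled, and log2 fold changes are UNC1999 minus UNC2400. Replicates of a group differed beyond sampling noise (chi-square per gene 4.23 to 12.2). GENCODE 29, which is on another build than hg19, gave span, joined exon length and GC content by gene name for 84.3% of tested genes and all 10 silencers; an offset fitted smooth trends on them in each library. Log2 count ratios were compared by exact permutation. The alternatives were RLE and upper-quartile factors, DESeq2 1.42.0, limma-voom (limma 3.58.1), no low-count filter, a replicate block, the offset, both together, and leaving out each library. The scripts were tested on simulated data.

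The silencers and all lists were chosen with earlier results of these data known. Named genes were the 10 silencers, up to 4 genes per list with the smallest p, the 2 genes with the closest pattern for 4 silencers (mean log2 CPM of at least 3), the 3 highest and 3 lowest numbered ZNF genes (called, groups not overlapping, mean log2 CPM of at least 1), and POU5F1, NANOG and SOX2. CERS2, CCDC66, PRICKLE1, ZCRB1 and HNRNPA2B1 were added as overlapping genes. After their values were seen, ZNF274, DNMT3L, DPPA5, KLF17, KHDC1L, TOP2A, MKI67, COL1A1, COL1A2, COL3A1, THY1, PDGFRB, TWIST2, LUM and DCN were added. So were LRIF1, CHAF1B, ADNP, CDK1, PCNA and CCNB1.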

Additional observations from a re-analysis of the deposited data

How the results depend on the processing

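In all 14 alternatives 1 silencer was higher, and 5 or 6 were lower. Over all genes 3642 to 4926 were higher and 3951 to 5151 lower. The number of genes tested was 17596 to 18176, but 36090 with no low-count filter (4304 higher and 4600 lower), so the share called differs among the alternatives. TRIM28, SETDB1, ATF7IP, FAM208A, MORC2 and CBX1 kept direction and call in each. With the offset for span, exon length and GC content, PPHLN1 was at 0.0832, CBX3 at -0.20 (adjusted p = 0.00758), CBX5 at -0.0858 (adjusted p = 0.172), WIZ at 0.0638 and ATRX at 0.0507, and with that offset and the replicate block PPHLN1 was at 0.0848, CBX3 at -0.20 (adjusted p = 0.00565), CBX5 at -0.0862 (adjusted p = 0.170), WIZ at 0.0618 and ATRX at 0.0507 (log2); the cause was not tested. Values near 0 changed sign: MPHOSPH8 was at 0.00585 without UNC2400 replicate 2, CBX3 at 0.0142 with upper-quartile factors, 0.0154 without UNC2400 replicate 3 and 0.00695 without UNC1999 replicate 2, and SOX2 at 0.00776 with upper-quartile factors, 0.0262 without UNC2400 replicate 1 and 0.0113 without UNC1999 replicate 2. Leaving out 1 library gave -0.0670 to 0.00585 for MPHOSPH8, -0.0497 to 0.0154 for CBX3, 0.0452 to 0.104 for SETDB1 and -0.0713 to 0.0262 for SOX2. NANOG lost its call without UNC2400 replicate 2 or 3 or UNC1999 replicate 3 (highest adjusted p = 0.127), and WIZ gained one without UNC1999 replicate 1. The 8 count ratios kept their sign in the 7 alternatives on counts; as differences of fold changes fitted with the offset, added after seeing the data, CBX5 to CBX3 turned to 0.112 and the other 7 kept theirs.

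With the replicate block alone, 6 silencers were lower and 1 higher, where 4695 of all 17596 genes tested were lower and 4867 higher. TRIM28 was at -0.26 and ATF7IP at -0.59, and no silencer's call changed. Deviations of same-numbered libraries correlated at 0.126, 0.0791 and 0.231 over 10325 genes, and every library correlated best with its own number, a hint from the data and not from the design.

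Counts of numbered ZNF genes were repeated under the same alternatives after seeing the data: 204 to 273 were higher and 28 to 41 lower. A search for KRAB domains in protein sequences was not run. With 3 libraries a group, a difference as small as that of SETDB1 (0.09) could not be told from 0.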
